A study of Drosophila melanogaster with 16 samples.

Results

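Nuclear genes for the oxidative phosphorylation machinery of mitochondria were examined in P1 neurons of Drosophila melanogaster males. Members were all genes whose FlyBase symbol begins with ND-, Sdh, UQCR-, COX, Cyt-c or ATPsyn, without the genes of the mitochondrial genome. The rule found 91 members among the 17559 genes with a row in the count files of all 8 libraries. They comprised 64 main genes, 26 duplicate paralogs (for most, an L is added to the symbol of the main gene) and Sdhaf3, an assembly factor of complex II. By complex, main genes and duplicates numbered 34 and 6 for complex I, 4 and 3 for complex II, 7 and 4 for complex III, 8 and 8 for complex IV, and 11 and 4 for complex V. The remaining duplicate was Cyt-c-d, a cytochrome c of the male germline. Its ubiquitous partner Cyt-c-p was not analysed here.

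Oxidative phosphorylation makes most of the ATP of a neuron. Complex I (NADH dehydrogenase) and complex II (succinate dehydrogenase) pass electrons to ubiquinone, complex III passes them to cytochrome c, complex IV (cytochrome c oxidase) reduces oxygen, and complex V (ATP synthase) uses the resulting proton gradient. Each complex is built from several nuclear-encoded subunits, and all but complex II also hold subunits encoded in mitochondrial DNA. Many of the duplicate paralogs in flies are known for expression in the testis.

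P1 neurons are a male cluster of 12 cells that take part in courtship. GFP-labelled cells were drawn into a patch pipet from the brains of living males, and the polyA RNA was amplified through cDNA before sequencing. The 8 libraries came from 4 naive and 4 mated samples. All carried UAS>stop>GFP/+; fruFLP/NP2631-Gal4, in which fru-driven FLP removes a stop cassette so that NP2631-Gal4 labels only cells where the drivers meet; no group without these transgenes was included. Males were 3 to 6 days old and had been isolated for 4 to 6 days, naive males stayed virgin, mated males were paired with a female, and cells were taken within 0.5 h of the end of training. The labels do not give the number of cells or animals per library, nor state that libraries came from separate animals, so p-values measure only the spread between these libraries. Total counts ran from 6897560 to 13651313 per library. The 4 neuron markers were abundant in every library, with a summed level of 5821 to 8476 CPM (counts per 1000000, scaled by the TMM method) in naive and 3445 to 5696 CPM in mated libraries.

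The main genes of all 5 complexes were readily detected. Of 64 main genes, 61 had at least 3 counts, and also at least 10, in all 8 libraries, as did Sdhaf3, and these 62 members passed the filter on low counts and were tested. The other 3 main genes were nearly silent in the counts: ND-B8 had 1 count in all, and ND-MNLL and UQCR-14 had 0. ND-MNLL lies wholly within exons of CG45089 and UQCR-14 within exons of CG32576, so reads from them may have been left unassigned; whether they were was not tested. A count of 0 allows up to 3 counts, which is 0.217 to 0.492 CPM depending on the library (counting error only). The 13 protein-coding genes of the mitochondrial genome were all listed at 0 counts, so the mitochondrially encoded subunits could not be set beside the nuclear ones.

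Together the 91 members took 1.53% to 1.85% of all counts in naive libraries. In mated libraries the shares were 3.14%, 3.72%, 2.04% and 1.75%. Mated 1 and mated 2 lay well above every naive library, whereas mated 4 lay within the naive range.

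**Figure D1:**
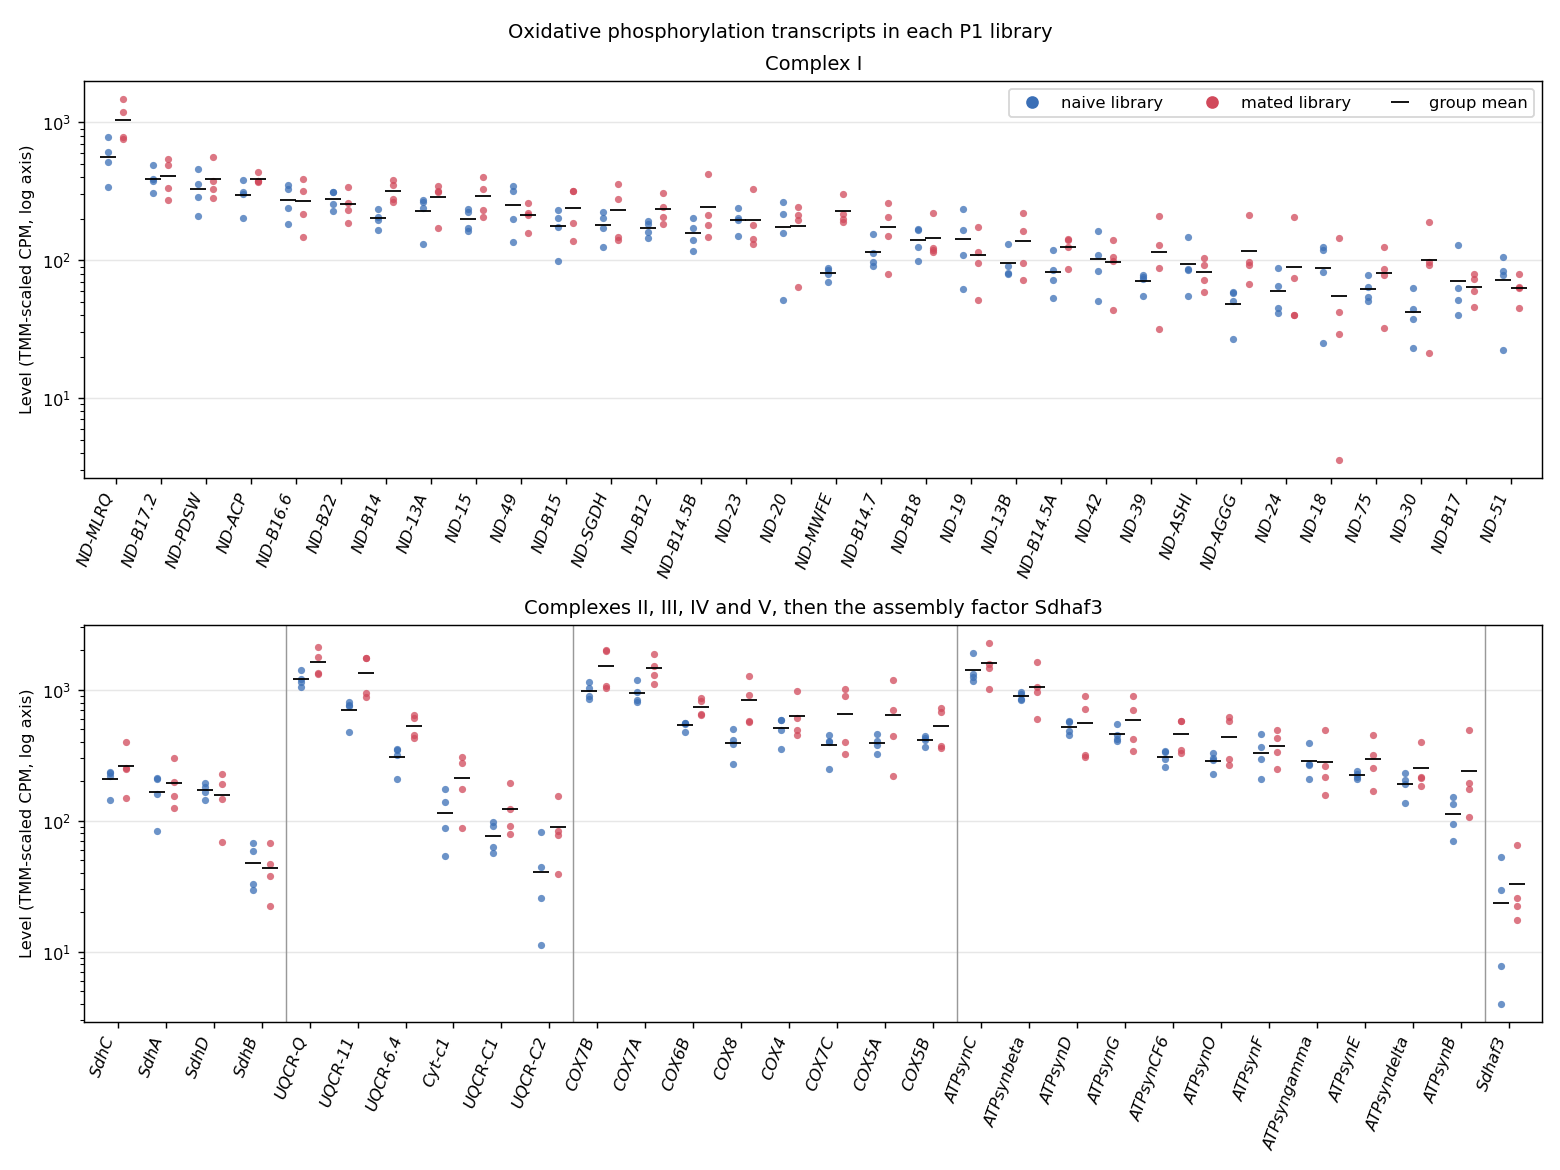
Level of each of the 62 tested members in every library, in TMM-scaled CPM on a log axis; blue points are the 4 naive libraries, red points the 4 mated libraries and bars the group means. COX7B, COX7A, UQCR-Q and ATPsynC reach over 1000 CPM in several libraries, and Sdhaf3 has the lowest mean.

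Transcript levels differed widely between the complexes. Per kilobase of exon, the median member of complex IV reached 730.5 CPM per kb (8 genes), complex V 453.1 (11 genes), complex III 369.8 (6 genes), complex I 188.6 (32 genes) and complex II 125.0 (4 genes). All were above the median of the 7090 genes tested, 13.41 CPM per kb. Without division by length, the median of complex II, 172.6 CPM, was above that of complex I, 164.8 CPM. Complexes IV, V and III kept their order at 592.2, 363.4 and 290.9 CPM. The order was not tested, since genes of a complex are not replicates, and in complex III alone the means ran from 38.4 to 1462 CPM per kb.

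In complex I, the 7 core subunits, which carry the flavin and iron-sulfur clusters or build the arm that holds them, had a median of 72.78 CPM per kb, and the 25 accessory subunits 214.7. ND-MLRQ, the fly counterpart of mammalian NDUFA4 (a protein since placed with complex IV in mammals), was the highest at 1496 ± 681 CPM per kb (SD, n = 8 libraries). The accessory subunits ND-B17.2 and ND-PDSW followed with means of 544.9 and 484.9 CPM per kb. In complex II, the membrane anchors SdhC and SdhD averaged 258.9 and 184.6 CPM per kb, above the flavoprotein SdhA at 65.5 CPM per kb. Without division by length, SdhC averaged 234.6 CPM, SdhA 180.1 and SdhD 165.0.

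In complex III, UQCR-Q, UQCR-6.4 and UQCR-11, which are small subunits without a redox centre, averaged 1462, 747 and 632.6 CPM per kb. Complex IV held the highest member of all per kilobase, COX7B, at 3001 ± 1114 CPM per kb (SD, n = 8), ahead of COX7A at 1727 ± 526 and COX8 at 1196 ± 634. These small subunits surround the catalytic core that mitochondrial DNA encodes. The ranges of 1 SD of COX7B and COX7A overlapped, as did those of COX7A and COX8. In complex V, ATPsynC, the subunit of the rotating ring in the membrane, averaged 805.7 CPM per kb, and ATPsynG and ATPsynF, small subunits of the membrane part, 663.2 and 575.2. These ranks changed without division by length. ATPsynC at 1505 CPM and UQCR-Q at 1425 CPM then lay above COX7B at 1251 CPM. UQCR-11 (1020 CPM) lay above UQCR-6.4 (419.1 CPM), COX6B (640.2 CPM) above COX8 (613.6 CPM) and ATPsynbeta (977.7 CPM) above ATPsynG (523.3 CPM).

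The tested members varied less between libraries of 1 group than a typical gene. Their median within-group SD was 0.49 on the log2 CPM scale, against 1.04 over all 7090 tested genes. Complex IV had the smallest median at 0.42 and the core of complex I the largest at 0.74. The members were also more abundant than a typical gene, with a median of 226.6 CPM against 29.13, and sampling noise is smaller at high counts. The part of abundance in the smaller SD was not tested.

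The duplicate paralogs were close to silent. None of the 26 had 3 counts in all 8 libraries, and none passed the filter on low counts. In at least 1 library 3 or more counts were seen for 19 of them, and 10 or more for 5. The highest mean of a duplicate was 1.578 CPM, for COX7AL2, and the lowest mean of a tested main gene was 45.4 CPM, for SdhB.

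The counts of the 5 highest duplicates came mostly from single libraries. ND-51L1, a paralog of the flavoprotein subunit gene ND-51, had 62 counts in naive 3, 18 in naive 1 and 2 or fewer in the other 6. COX7AL2, a paralog of COX7A, had 65 counts in mated 1, 17 in naive 4, 15 in mated 4 and 3 or fewer elsewhere. Neither set apart naive from mated libraries. ATPsynCF6L, a paralog of the stalk subunit gene ATPsynCF6, had 50 counts in naive 1 and 3 or fewer in each other library. ATPsynepsilonL, a paralog of sun, had 51 counts in mated 4 and 1 or 0 elsewhere. UQCR-11L had 10 counts in mated 4 and 6 in naive 1, the largest of its values. Cyt-c-d had between 1 and 5 counts in each library.

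The other 13 duplicates that reached 3 counts in some library peaked at 3 to 9 counts. They were ND-49L, ND-51L2, ND-B14.5AL, SdhAL, SdhBL, SdhCL, UQCR-14L, COX4L, COX6AL, COX6AL2, COX6CL, COX7AL and COX7CL. In 24 pairs the main gene had counts. The duplicate gave under 1% of the counts of the pair in 23 of them, and 1.79% in the pair of ND-51L1 and ND-51. COX5BL, which lies wholly within exons of Trmt6, had 0 counts in all libraries. No pair had enough counts of the duplicate for a test of its ratio between naive and mated males. Markers of the male germline, where many such paralogs are used, were low throughout: the summed level of the list was 6.434 to 11.51 CPM in naive and 5.286 to 9.184 CPM in mated libraries, with Mst84Da at 0 in every library. Of the 358 exon bases of Mst84Da, 269 also lie in exons of MstProx on the opposite strand. Its reads may thus have been left unassigned, which was not tested.

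**Figure D2:**
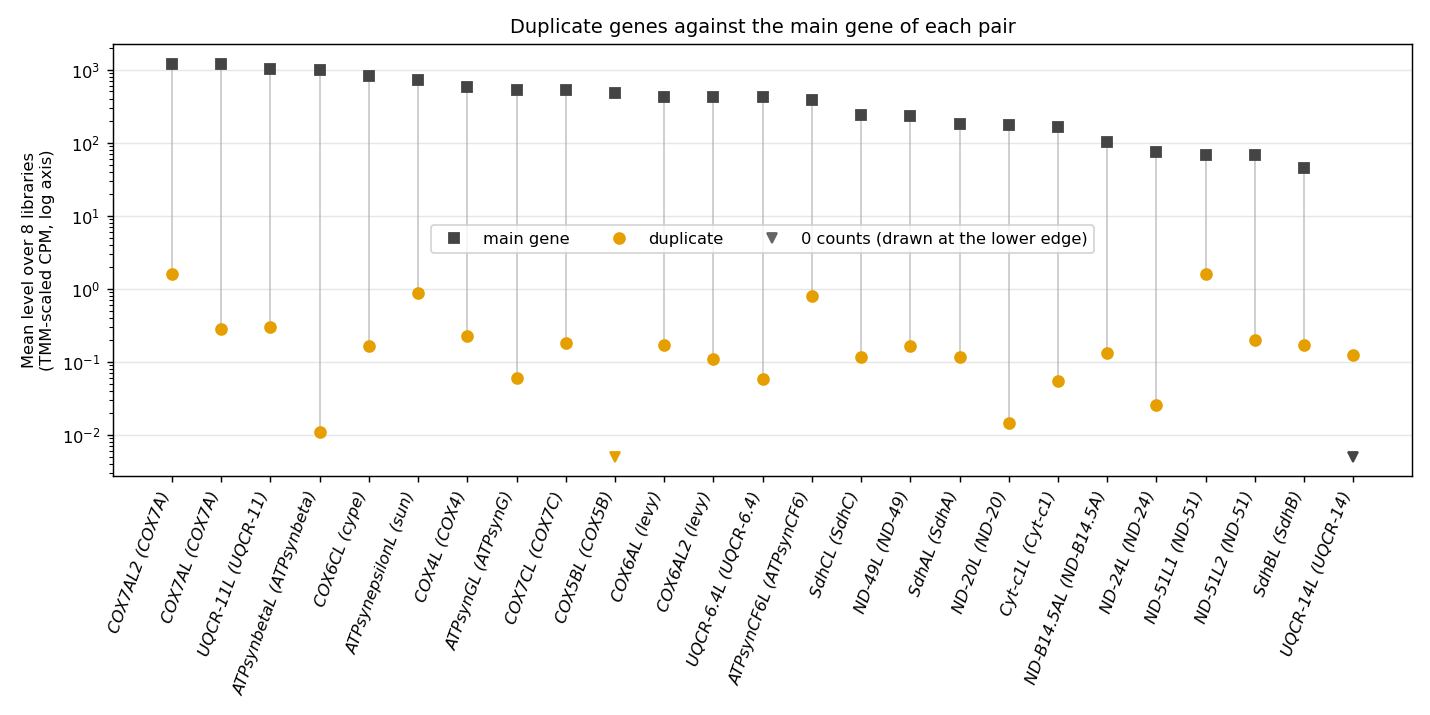
Mean level over the 8 libraries of each duplicate (orange) and the main gene of its pair (black squares), in TMM-scaled CPM on a log axis; triangles at the lower edge stand for 0 counts. In these pairs, main genes with counts average 45.4 CPM or more, and the highest duplicate, COX7AL2, averages 1.578 CPM.

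Mated males were then compared with naive males, the contrast the study was set up for. ND-MWFE, an accessory subunit of complex I that in mammals is needed for assembly of the complex, was the only member that changed by the test: edgeR's quasi-likelihood test with Benjamini-Hochberg adjustment over all 7090 genes called it higher in mated males. No member was lower. The share called higher over all tested genes was 0.339%, and the share called lower was 0.0423%. In bulk samples such as these, fewer cells of a type and less RNA per cell cannot be told apart.

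The level of ND-MWFE (FBgn0085468, chromosome arm 2R) was 84.3, 88.5, 69.2 and 79.5 CPM in naive 1 to 4. In mated 1 to 4 it was 198, 302, 191 and 218 CPM. Every mated library lay above every naive one. The means were 80.4 ± 8.31 CPM in naive and 227 ± 51.2 CPM in mated males (SD, n = 4 each). The log2 fold change was 1.50 ± 0.30 (SE), with an edgeR adjusted p of 0.0468 (0.000253 to 0.702 over the alternatives). The call was close to the threshold. It was lost on leaving out any 1 library but mated 3, and with limma-voom (adjusted p = 0.12). It was also lost with the trend on exon length removed (edgeR adjusted p = 0.101) or the number in the sample title as a factor. That last fit set naive 3 alone against mated 1 and mated 3. Of the 844 exon bases of ND-MWFE, 295 also lie in exons of Nrk on the same strand or TppII on the opposite strand. The counts of ND-MWFE are therefore uncertain where reads could belong to either gene.

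Without adjustment for multiple testing, 14 of the 62 tested members (22.6%) had p below 0.05, all higher in mated males. Over all tested genes the share was 5.54% higher and 5.02% lower. In 7 members (11.3%) all 4 mated libraries lay above all 4 naive ones, and in none below. That held for 4.26% of all tested genes above and 3.4% below. The log2 fold change was above 0 in 49 members (79.0%) against 49.5% of all tested genes, with a median of 0.41 against -0.01. The 31 tested members whose exons overlap no other gene had a median of 0.42, and 26 of them were above 0.

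Libraries within the mated group differed. Of the 62 tested members, 39 had their highest level in mated 2 and 15 in mated 1, but 17 had their lowest level in mated 4. The summed level of the tested members was 16640, 19360, 17420 and 18810 CPM in naive 1 to 4 and 28700, 33050, 20190 and 17110 CPM in mated 1 to 4. Mated 4 thus lay inside the naive range and mated 3 just above it. The median log2 fold change of the members was 0.21 without mated 2 and 0.32 without mated 1.

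**Figure D3:**
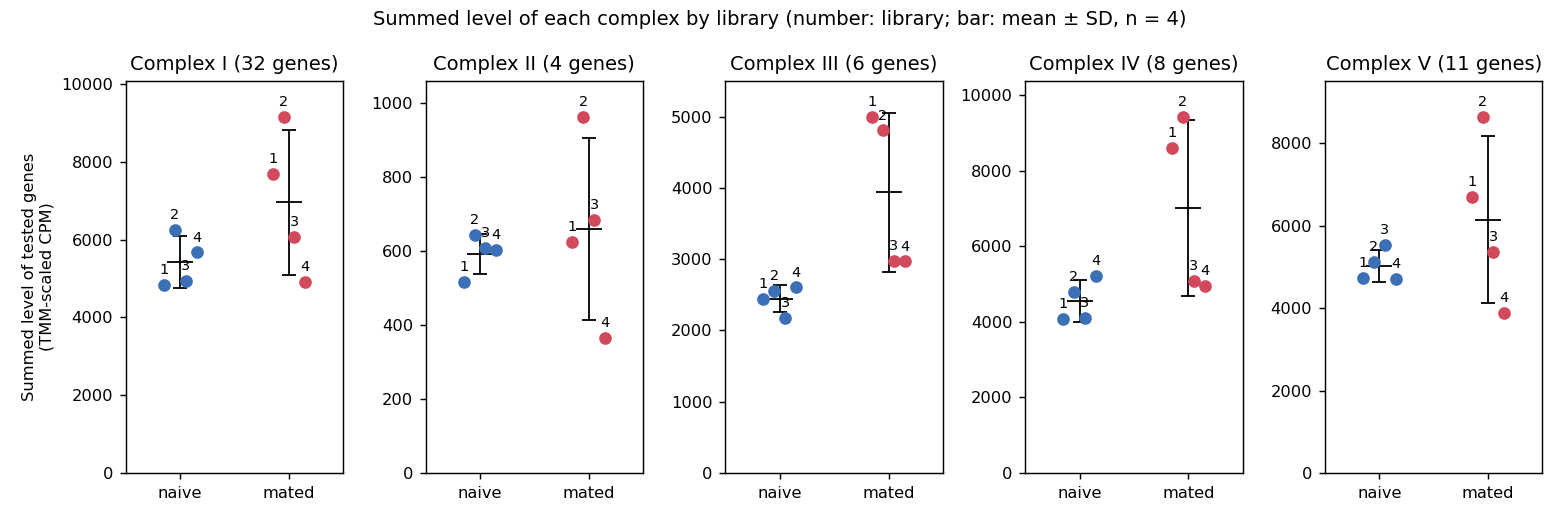
Summed level of the tested genes of each complex in every library (TMM-scaled CPM, axes from 0); numbers mark the library within its group and bars the mean ± SD (n = 4). In complex III all 4 mated libraries lie above the naive ones, and in the other complexes mated 4 lies within or below the naive range.

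Complex III was the complex whose sum kept naive and mated libraries apart. Its 6 tested genes summed to 2446, 2549, 2181 and 2604 CPM in naive 1 to 4 and to 5001, 4808, 2977 and 2969 CPM in mated 1 to 4. All 6 had a log2 fold change above 0, with a median of 0.85 (0.68 to 0.96 on leaving out 1 library), and this held for all 6 under every alternative. None of the 6 passed the adjusted threshold with edgeR.

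UQCR-11 (FBgn0260008, 3L:25120709-25126171 in BDGP6, plus strand) stood at 766, 759, 476 and 801 CPM in naive 1 to 4 and at 1765, 1759, 887 and 951 CPM in mated 1 to 4. The groups did not overlap, and mated 1 and 2 were about the same as each other and far above mated 3 and 4. Its log2 fold change was 0.94 ± 0.28 (SE, edgeR adjusted p = 0.201). DESeq2, which called many more genes than edgeR over all tested genes, called it (adjusted p = 0.0366). UQCR-6.4 showed no overlap either, with a log2 fold change of 0.80 ± 0.26 and an edgeR adjusted p of 0.229. UQCR-Q, the most abundant subunit of complex III per kilobase, had a log2 fold change of 0.45 ± 0.22 (edgeR adjusted p = 0.516).

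The subunits of complex III that work in electron transfer or form its core had wider errors. Cyt-c1, which carries the heme that reduces cytochrome c, gave 0.89 ± 0.43 on the log2 scale, and the core proteins UQCR-C1 and UQCR-C2 gave 0.67 ± 0.39 and 1.13 ± 0.60. In UQCR-C2 naive levels ran from 11.2 to 81.5 CPM and mated levels from 39.5 to 155 CPM, so the groups overlapped.

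In complex IV all 8 tested genes had a log2 fold change above 0, with a median of 0.62 (0.43 to 0.77 on leaving out 1 library), and 5 had an unadjusted p below 0.05 (COX6B, COX7A, COX7B, COX7C and COX8). COX4 was the 1 exception under the alternatives, at -0.15 with the title number as a factor. The sums were 4082, 4800, 4103 and 5225 CPM in naive 1 to 4 and 8607, 9437, 5081 and 4955 CPM in mated 1 to 4. Mated 3 and 4 lay inside the naive range.

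COX8 (FBgn0263911, 3L:21538859-21539447 in BDGP6, minus strand) stood at 385, 415, 273 and 502 CPM in naive 1 to 4 and at 1269, 912, 569 and 582 CPM in mated 1 to 4. The groups did not overlap, and mated 1 was the highest. Its log2 fold change was 1.08 ± 0.30 (SE, edgeR adjusted p = 0.152). DESeq2, which called many more genes than edgeR over all tested genes, called it (adjusted p = 0.0173). COX6B, the other member of complex IV without overlap, spanned 473 to 560 CPM in the naive group, and the mated group spanned 638 to 866 CPM (log2 fold change 0.48 ± 0.21, edgeR adjusted p = 0.442). COX7B, the most abundant member per kilobase, gave 0.63 ± 0.26 and COX7A 0.62 ± 0.23 on the log2 scale, and in each the groups overlapped.

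In complex V the log2 fold change was above 0 in 10 of 11 genes, with a median of 0.37. Without mated 2 the median was 0.11 and 8 of 11 were above 0 (0.11 to 0.52 on leaving out 1 library), and with the title number as a factor 7 of 11 were above 0. The exception was ATPsyngamma, the central stalk, at -0.01 ± 0.34. ATPsynB, a subunit of the outer stalk, had the largest value of the complex at 1.11 ± 0.43 (edgeR adjusted p = 0.352). It stood at 69.8, 94.1, 152 and 134 CPM in naive 1 to 4 and at 195, 490, 107 and 175 CPM in mated 1 to 4, so the groups overlapped and mated 2 was far above the rest. ATPsynC and ATPsynbeta, the catalytic subunit, gave 0.17 ± 0.26 and 0.24 ± 0.27. The sum of the complex was 4701 to 5539 CPM in naive and 6699, 8650, 5358 and 3882 CPM in mated 1 to 4, with mated 4 below every naive library.

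Complex I was mixed: 22 of its 32 tested genes had a log2 fold change above 0, with a median of 0.36. The median was 0.05 in the 7 core genes, of which 4 were above 0, and 0.38 in the 25 accessory genes, of which 18 were. Without mated 2 the median of the complex was 0.11, with 19 of 32 above 0 (0.11 to 0.48 on leaving out 1 library). The median of the core genes had no stable sign, at -0.12 without naive 1, -0.05 without mated 2 and 0.32 without naive 2, and that of the accessory genes was 0.23 without mated 2. The sum of the complex was 4829 to 6253 CPM in naive and 7703, 9168, 6065 and 4922 CPM in mated 1 to 4. Mated 3 and 4 again lay inside the naive range.

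After ND-MWFE, the largest positive values in complex I were those of ND-AGGG, an accessory subunit, at 1.28 ± 0.45 (edgeR adjusted p = 0.285), and ND-30, a core subunit, at 1.25 ± 0.57 (0.46). ND-AGGG stood at 58.3, 50.3, 26.7 and 58.7 CPM in naive 1 to 4 and at 96.6, 214, 67.2 and 92.6 CPM in mated 1 to 4, without overlap. ND-30 overlapped, as mated 1 was its lowest library at 21.3 CPM and mated 2 its highest at 191 CPM. ND-B14, an accessory subunit, also did not overlap, at 166 to 235 CPM in naive and 263 to 383 CPM in mated libraries. ND-MLRQ gave 0.90 ± 0.30, with overlap.

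The largest negative values of all members were also in complex I, and none passed the test. ND-18, an accessory subunit, had a log2 fold change of -0.67 ± 0.78 (edgeR adjusted p = 0.888). It ranged from 25.1 to 125 CPM in naive libraries and stood at 42.1, 145, 29.3 and 3.54 CPM in mated 1 to 4, so that its lowest value was in mated 4 and its highest in mated 2. ND-19, another accessory subunit, gave -0.39 ± 0.45. ND-49 and ND-51, core subunits, gave -0.23 ± 0.32 and -0.20 ± 0.48, and the accessory subunit ND-ASHI gave -0.19 ± 0.40.

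Complex II showed the smallest median, 0.06, with 2 of its 4 genes above 0. Its sign was not stable: the median was -0.07 without naive 1, -0.05 without mated 2, 0.26 without mated 4 and -0.13 with the title number as a factor. SdhA and SdhC gave 0.24 ± 0.36 and 0.33 ± 0.32, and SdhB, the iron-sulfur subunit, and SdhD gave -0.12 ± 0.54 and -0.11 ± 0.35. Its sum was 515 to 642.2 CPM in naive and 363.8 to 962.1 CPM in mated libraries, and the lowest and highest values were those of mated 4 and mated 2. Differences between complexes were not tested.

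**Figure D4:**
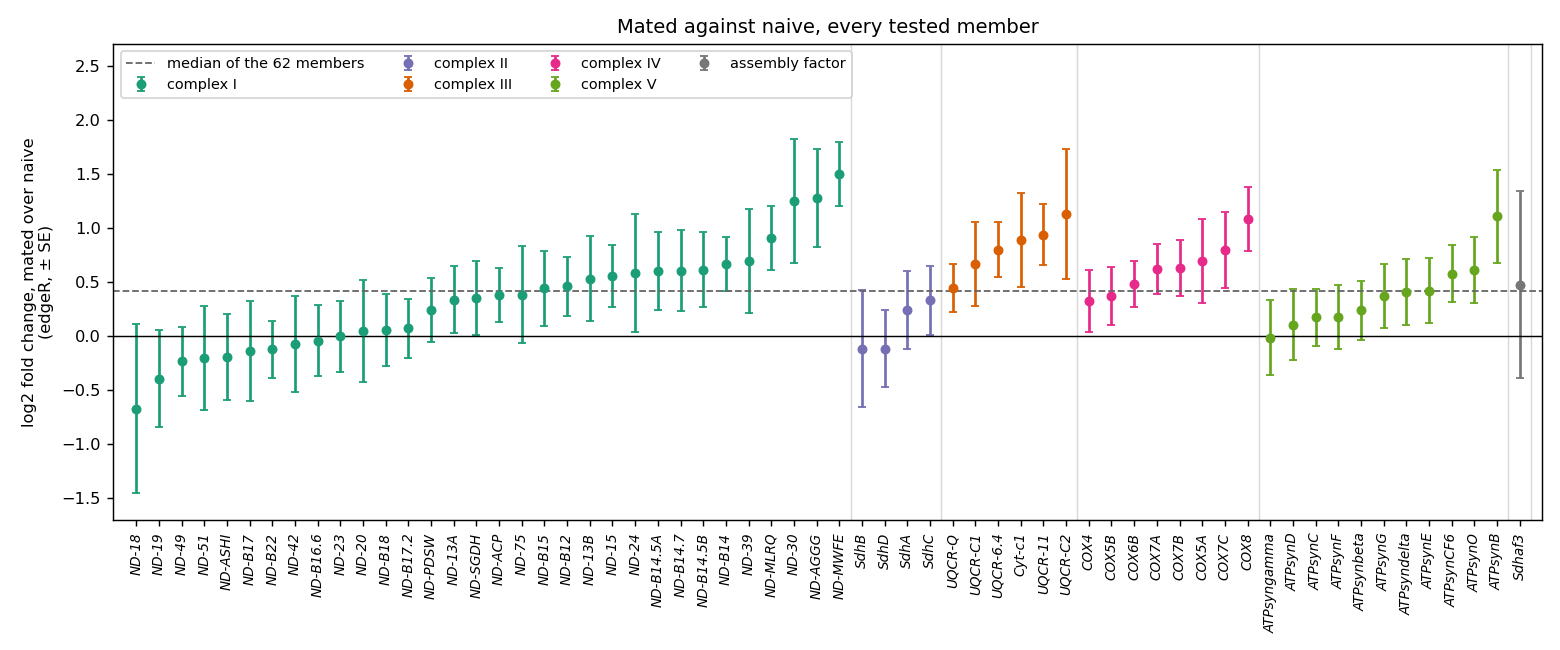
Log2 fold change of each tested member, mated over naive, from edgeR (points) with its SE (bars), ordered within each complex; the dashed line is the median of the 62 members, 0.41. All 6 genes of complex III and all 8 of complex IV lie above 0, and complex I runs from -0.67 for ND-18 to 1.50 for ND-MWFE.

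Members are short genes, and the difference between mated and naive libraries depended on length across all genes. The median exon length was 879.5 bases in the tested members (417 to 3817) and 2299 bases in all tested genes. For all tested genes the median log2 fold change was 0.48 below 750 bases (537 genes), 0.27 from 750 to 999 (496), 0.18 from 1000 to 1999 (1970), -0.00 from 2000 to 3999 (2182) and -0.32 from 4000 bases (1753). The members had medians of 0.53 (19 genes), 0.38 (21), 0.11 (18) and 0.31 (4) in the first 4 classes, and none was longer. They stepped down over the first 3 classes as all genes did, but in the fourth all 4 members were above 0.

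When the trend with exon length was removed from each library, the median of the members was 0.10 against 0.08 over all tested genes. Then 41 of 62 members were above 0, none passed the adjusted threshold, and 6 had an unadjusted p below 0.05, all higher. Of all 7090 tested genes, 3888 were above 0 in the same fit. At an unadjusted p below 0.05, 436 of them were higher and 171 lower. Complex III had a median of 0.53 and complex IV 0.23, with all 6 and all 8 genes above 0. Complex I had a median of 0.04, complex V 0.05 and complex II -0.17. The cytosolic ribosomal protein genes, which are of like length (median 921.5 bases), went from a median of 0.89 to 0.59, and the mitochondrial ribosomal protein genes from 0.04 to -0.33.

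**Figure D5:**
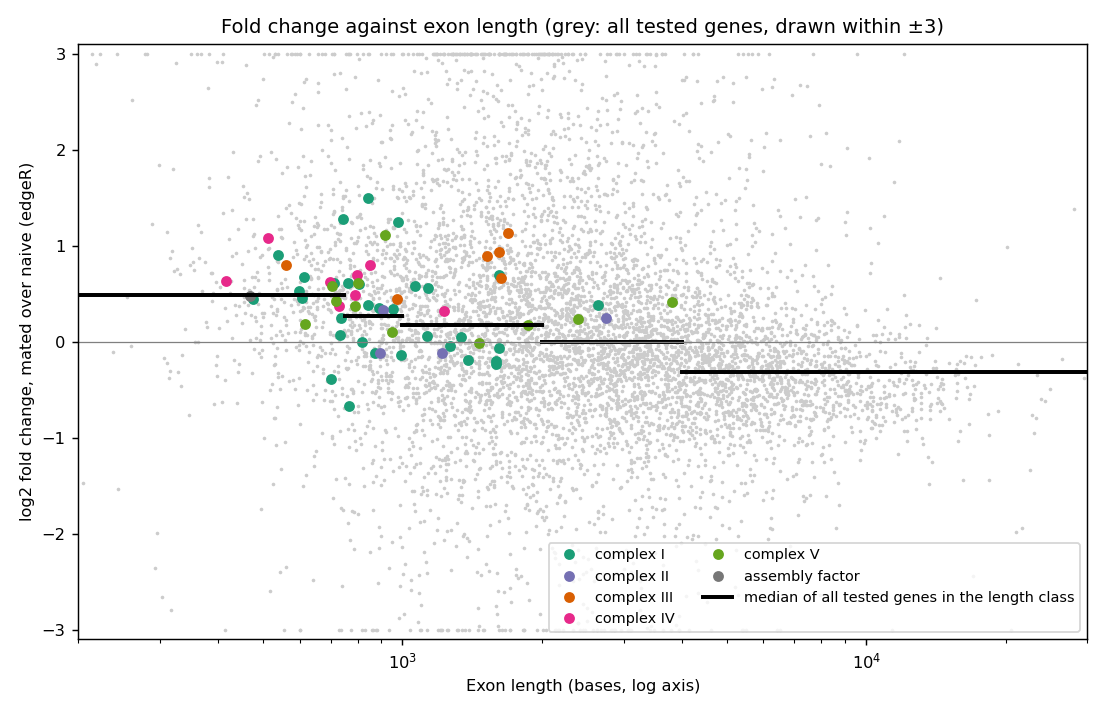
Log2 fold change, mated over naive (edgeR), against exon length in bases on a log axis; coloured points are the tested members by complex, grey points all tested genes (values past 3 are drawn at 3) and black bars the median of all tested genes in each length class. The bars step down from 0.48 in the shortest class to -0.32 in the longest, and the members lie in the shorter classes.

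Other quantities moved with the same libraries. The summed level of genes of 4000 bases or more was 561000 to 686200 CPM in naive libraries, 365000 and 338000 CPM in mated 1 and 2, and 528500 and 528200 CPM in mated 3 and 4. Cytosolic ribosomal protein genes summed to 20680 to 23870 CPM in naive, 54940 and 55260 CPM in mated 1 and 2, and 28350 and 27740 CPM in mated 3 and 4. The neuron markers, which are long genes, had a log2 fold change below 0 in 4 of 4 genes, with a median of -0.60 and 3 at an unadjusted p below 0.05. With the trend on exon length removed the median was -0.14, 1 of 4 was above 0 and none had an unadjusted p below 0.05.

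Markers of other cell types were mostly higher in mated libraries too. The glial list of 10 genes summed to 125.3 to 350.8 CPM in naive and 301.8 to 1101 CPM in mated libraries. The log2 fold change was above 0 in the 7 genes tested, from 0.25 ± 1.77 (SE) for repo to 3.60 ± 1.18 for wrapper. The groups overlapped in both, and repo had 0 counts in naive 3 and in mated 2. The fat body list summed to 241.6 to 603.7 CPM in naive and 1225 to 2939 CPM in mated libraries, above 0 in 6 of 6, and apolpp, a lipoprotein gene, was called (edgeR adjusted p = 0.0163, and 4.96e-07 to 0.702 over the alternatives). The photoreceptor list summed to 18.28 to 95.26 CPM in naive and 107.6 to 581.5 CPM in mated libraries, above 0 in 5 of 6 tested genes, and Arr2, an arrestin, was called (0.0196, and 1.64e-07 to 0.702).

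The hemocyte list of 6 genes summed to 0.4809 to 8.198 CPM in naive and 17.6 to 70.22 CPM in mated libraries. Only 3 were tested, Col4a1, vkg and Ppn, and all had a log2 fold change above 0. Col4a1 had 1, 0, 1 and 3 counts in naive 1 to 4, and Ppn had 10, 2, 0 and 9. Both passed the filter on low counts through the mated libraries, so their direction carries no weight. In vkg the groups overlapped. The muscle list overlapped between groups, at 26.73 to 49.03 CPM in naive and 36.47 to 203.8 CPM in mated libraries, above 0 in 5 of 7 tested genes. No marker of these 5 lists was at 0 in every library. The part of other cells, of gene length or of single libraries in the values of the oxidative phosphorylation genes was not tested.

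Subunits and partners with other kinds of symbol were taken from further lists. Of 9 listed subunits, 6 were found by symbol: RFeSP, ox, levy, cype, blw and sun. All 6 had a log2 fold change above 0, with a median of 0.45 and none past the adjusted threshold. Of these, sun, which encodes the epsilon subunit of ATP synthase, stood at 523, 610, 400 and 539 CPM in naive 1 to 4 and at 1170, 1038, 709 and 720 CPM in mated 1 to 4. The groups did not overlap (log2 fold change 0.81 ± 0.24, edgeR adjusted p = 0.201). The small complex III subunit gene ox gave 0.70 ± 0.26, also without overlap (0.308).

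Of 27 listed assembly factors, only 10 were found by symbol. Of the 9 tested, 7 had a log2 fold change above 0, with a median of 0.44 and none past the adjusted threshold. Surf1, an assembly factor of complex IV, ranged from 0.328 to 2.73 CPM in naive libraries and stood at 11.6, 52.4, 26.1 and 0.131 CPM in mated 1 to 4. The groups overlapped through mated 4 (log2 fold change 3.77 ± 1.52, edgeR adjusted p = 0.371). The lowest value of the list was that of Scox, a copper chaperone of complex IV, at -1.18 ± 0.69. Of 11 listed mitochondrial carriers 8 were tested, and 6 were above 0 with a median of 0.56. Among them was sesB, the main ADP/ATP carrier, at 0.51 ± 0.22 (edgeR adjusted p = 0.431).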

How the data were processed

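The authors deposited gene counts of polyA RNA for 16 entries; each of the 8 libraries was sequenced in an A and a B run, and the deposited sum of both was used, and 0 columns were left out for want of a sample. Per the submitters' processing notes, cutadapt, HISAT2 2.2.1 and featureCounts 1.6.2 were used with builds dm6 and BDGP6; the annotation version and strand setting of the counting are not given in the sources used here. PCR duplicates cannot be told from separate molecules, as the labels name no molecular identifiers.

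Gene symbols came from a gene name table (17252 IDs matched, 307 did not), and exon lengths, exon overlaps and positions from Ensembl BDGP6 release 115. Counts were tested with edgeR 4.0.16 (filterByExpr, TMM scaling, robust quasi-likelihood test, Benjamini-Hochberg adjustment over 7090 genes, threshold 0.05) on 4 naive and 4 mated libraries. CPM are counts per 1000000 of the TMM-scaled library size, and CPM per kb divides them by the union of exons. R 4.3.3, limma 3.58.1, DESeq2 1.42.0 and Python 3.11.15 served the rest, and the tests were tried on simulated counts.

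Genes were named by rule: members past the adjusted threshold and the 3 highest per complex in CPM per kb. So were the 5 largest and 5 smallest log2 fold changes and duplicates with 3 counts in a library. Of other lists the rule took the called genes and extremes. The extremes were left out here for the neuron, fat body, photoreceptor, muscle, germline and carrier lists. For the hemocyte list all tested genes were named. Of the subunits with other kinds of symbol only the highest extreme was given. The genes named for no overlap between groups or for a role in their complex were chosen after their values were seen, as were sun, ox, sesB and the glycolysis genes. The symbol Pc, which names Polycomb in flies, was taken out of the tricarboxylic acid cycle list after its value was seen. The members and lists were chosen with earlier results of these data known.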

Additional observations from a re-analysis of the deposited data

Results flagged for a closer look

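In 62 groups of 4 libraries (the named members, and the sums of the complexes and of all members, in each condition), 2 had 1 library far from the other 3 by Dixon's ratio; chance flags about 1 in 20 groups. SdhC stood at 143 CPM in naive 3, with the other naive libraries at 220 to 235 CPM (ratio 0.837). UQCR-11 stood at 476 CPM in naive 3, with the others at 759 to 801 CPM (ratio 0.869). Both low values were in the same naive library, which was also the lowest of all 8 libraries in 17 of the 62 tested members. It did not stand out by that count, as mated 4 was also the lowest in 17 and naive 1 in 12.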

How the results depend on the processing

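No paired analysis was possible because no label says which naive and mated libraries form the pairs that the design text mentions. Over all genes, 27 were called by edgeR, 46 with library size alone, 234 with DESeq2, 3 with limma-voom, 56 with no filter on low counts, 47 with the B run alone and 0 with the title number as a factor; leaving out 1 library gave 6 to 53. Of the members, 1 was called by edgeR, 3 with DESeq2 (ND-MWFE, COX8 and UQCR-11), and 0 with limma-voom, the exon-length trend removed or the title number as a factor; leaving out 1 library gave 0 to 1. At an unadjusted p below 0.05, the fit with the length trend removed had 6 members. In that fit 436 of all 7090 tested genes were higher and 171 lower. The median log2 fold change of the members stayed above 0 under all 20 alternatives, from 0.10 with the length trend removed to 0.61 with library size alone. Over all tested genes the median was 0.08 with the length trend removed, close to that of the members, and 0.17 with library size alone. The median of the members was 0.41 with the title number, against 0.19 over all genes, and 0.21 to 0.55 on leaving out 1 library.

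Of 25 named members, 11 turned direction under some alternative, none of them past the threshold in either. With the length trend removed, ND-B17.2 gave -0.28, ND-PDSW -0.065 and ATPsynF -0.18. With library size alone, SdhD gave 0.081, ND-51 0.011 and ND-ASHI 0.011, and with limma-voom ND-51 gave 0.11. With the title number as a factor, SdhA gave -0.24, ATPsynC -0.32, ATPsynB -0.010, ND-18 0.51 and ND-19 0.76. On leaving out 1 library, 7 of them crossed 0: the values ran from -0.092 to 0.21 for ND-B17.2, -0.34 to 0.125 for SdhD, -0.044 to 0.39 for SdhA, -0.055 to 0.35 for ATPsynC, -0.00135 to 0.37 for ATPsynF, -0.51 to 0.028 for ND-51 and -0.39 to 0.12 for ND-ASHI; the cause was not tested. The title number gives 5 values for 8 libraries. Of those, 3 hold a single naive library, and 1120 holds only mated 2 and mated 4. Only 1119 holds both groups, so that fit sets naive 3 alone against mated 1 and mated 3. The planned test of duplicate to main ratios was not run, since no pair had enough counts. The count of 62 detected members held at 10 counts and in each run alone.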

Other observations

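Genes of glycolysis and the tricarboxylic acid cycle, which feed electrons to the respiratory chain, were set beside the oxidative phosphorylation genes. By symbol, 12 of 14 listed glycolysis genes and 13 of 18 listed genes of the cycle were found. Of 11 tested glycolysis genes, 9 had a log2 fold change above 0, with a median of 0.32, and 5 had an unadjusted p below 0.05 (Pgi, Tpi, Gapdh1, Eno and PyK), against 5.54% of all tested genes; none passed the adjusted threshold. Gapdh1, a glyceraldehyde-3-phosphate dehydrogenase gene, stood at 100.2, 79.8, 102 and 134 CPM in naive 1 to 4 and at 298, 518, 174 and 163 CPM in mated 1 to 4. The groups did not overlap (log2 fold change 1.47 ± 0.38, edgeR adjusted p = 0.126). The lowest value of the list was -0.42, for Pgk. With the exon-length trend removed, the median of the glycolysis genes was 0.53.

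Of 13 tested genes of the tricarboxylic acid cycle and its pyruvate entry, 9 were above 0 with a median of 0.21, from -0.51 for Irp-1A, a cytosolic aconitase and iron regulatory protein, to 2.67 for ScsbetaG, a subunit of succinyl-CoA synthetase. Of 10 tested genes of mitochondrial DNA upkeep and biogenesis, 7 were above 0 with a median of 0.27, from -0.77 for ewg to 1.34 for mtSSB. None of either list passed the adjusted threshold; 2 and 0 had an unadjusted p below 0.05 with edgeR.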
